A study of Oryctolagus cuniculus with 9 samples.

Results

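Tumour necrosis factor (TNF), its receptors and genes that NF-kappaB signalling induces, some of which limit it, were examined in rabbit urethral tissue. The set holds 10 genes, taken by symbol from a table of 28788 gene rows: TNF, TNFRSF1A, TNFRSF1B, TNFAIP2, TNFAIP3, NFKBIA, NFKBIE, NFKB2, RELB and BIRC3. All 10 were in the table and all 10 were tested. The study made a hydrogel stent for urethral repair and used sequencing to ask how it acts. Polyadenylated RNA was sequenced in 9 libraries whose titles begin with S6, S7 or S9, 3 of each (S6_2, S6_3, S6_4, S7_2, S7_3, S7_4, S9_1, S9_2 and S9_4). The labels give no treatment, time, strain, age, sex or animal for a code, and none of the codes is named as a control. Differences are therefore given between codes only, and p-values measure the spread between these libraries, which may be technical.

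TNF is a cytokine made mainly by macrophages and other leukocytes, and it signals through a pair of receptors that differ in where they are expressed. Receptor engagement activates IkappaB kinase, which marks the IkappaB proteins for destruction and frees NF-kappaB dimers to enter the nucleus. Among the genes then transcribed are the IkappaB proteins themselves, the ubiquitin-editing enzyme TNFAIP3 and the precursor NFKB2, so that these transcripts serve both as brakes on the pathway and as a readout of its activity.

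Each library held 35127085 to 36832773 counted reads over 19025 to 19417 genes. In S6_4, S7_3 and S9_4, 1 library of each group, the mitochondrial transcript ATP6 lay at 20.9 to 26.5 CPM (counts scaled to a common library total), against 1937 to 3387 CPM in the other 6. The S6 libraries held more leukocyte RNA than the others: summed over PTPRC, CD53, LCP1 and CORO1A it was 283 to 1457 CPM in S6, 164 to 205 CPM in S7 and 85.8 to 170 CPM in S9, with S6_3 the highest. Summed macrophage markers (9 of 10 in the table) ran from 648 to 1677, 365 to 508 and 273 to 469 CPM, and summed neutrophil markers (8 of 8, with MMP8 at 0 everywhere) from 8883 to 15831, 5679 to 8104 and 836 to 6443 CPM in S6, S7 and S9. Of the 7 neutrophil markers tested, 6 were lower and 1 higher than in S6 in each comparison. The higher one had a log2 fold change of 2.92 in S9 and 2.34 in S7, so the sum mixes directions. Summed smooth muscle markers ran opposite to the summed leukocyte markers, at 1598 to 2933, 2507 to 9067 and 5550 to 10952 CPM. Markers of stratified epithelium were at 767 to 2966 CPM over all libraries, whereas 4 urothelial markers together reached only 4.18 to 24.0 CPM. In bulk tissue, fewer cells of a type and less RNA per cell cannot be told apart, and the part of cell composition in the differences below was not tested. Levels are CPM scaled by TMM, with mean ± SD (n = 3).

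Transcripts of TNF, of its receptor TNFRSF1B and of the NF-kappaB-induced genes of the set were lower in S9 than in S6. The receptor TNFRSF1A had nearly the same level in both. By edgeR's quasi-likelihood test with Benjamini-Hochberg adjustment over 17102 genes, 9 of the 10 were called lower in S9 at an adjusted p below 0.05, against 6.34% of all genes tested. All S9 libraries lay below all S6 libraries for 9 of the 10 genes and for 17% of all genes. The median log2 fold change of the 10 genes was -1.40, and that of all genes tested was -0.011. In S7 against S6 the same 9 genes also had S7 libraries below the S6 libraries, with a median log2 fold change of -1.32 over the 10 genes, but only TNFAIP3 and NFKB2 were called. These comparisons share the S6 libraries and are not independent. All 3 S6 libraries lay above every S7 and S9 library for 9 of the 10 genes and for 7.27% of all genes tested.

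**Figure D1:**
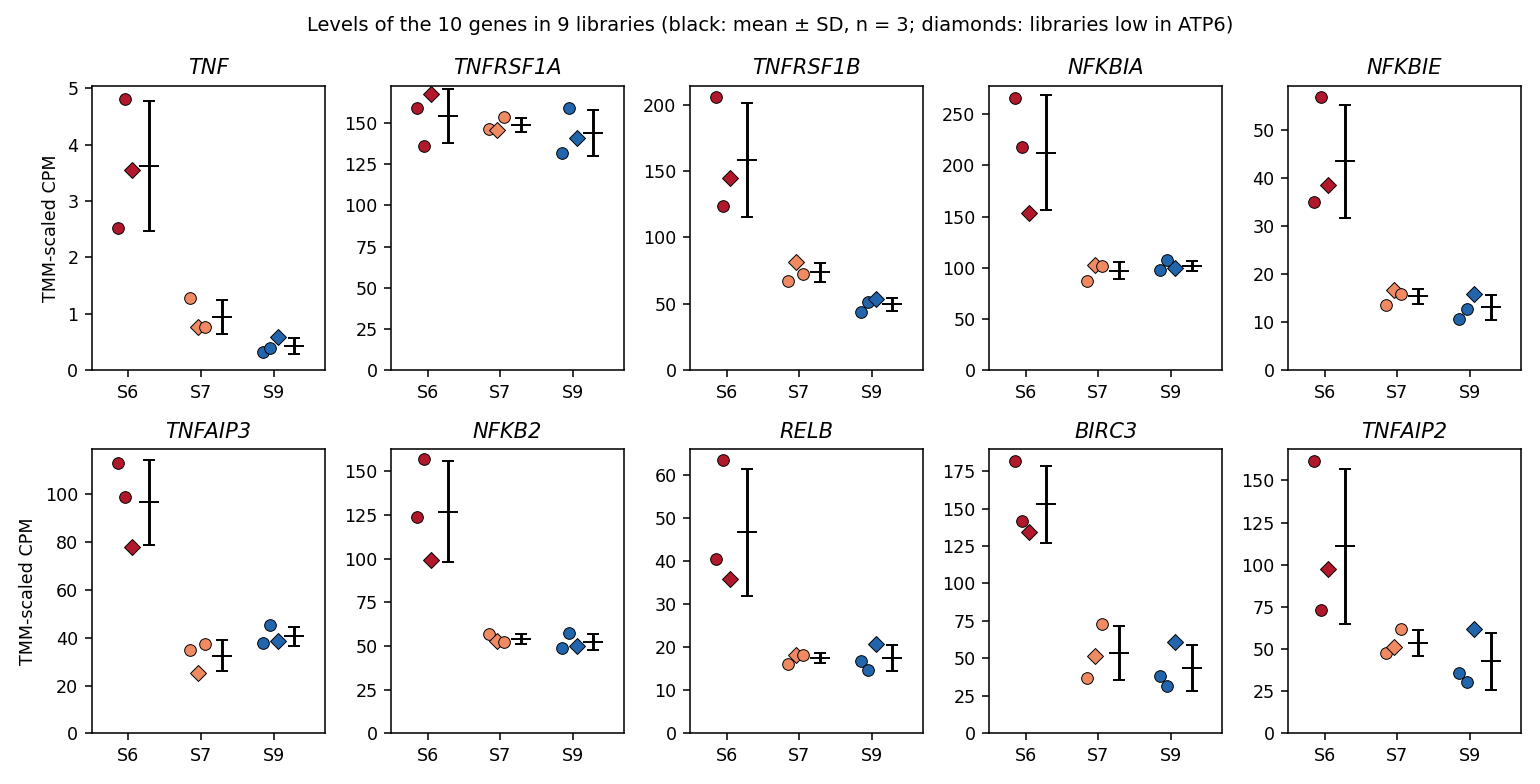
TMM-scaled CPM of the 10 genes (y axis, starting at 0) in the S6, S7 and S9 libraries (x axis), 1 point per library, with mean ± SD in black and diamonds for the libraries low in ATP6. In every panel except TNFRSF1A the 3 S6 points lie above the 6 others.

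The ligand itself was scarce. TNF was at 2.52, 4.81 and 3.54 CPM in S6_2, S6_3 and S6_4, at 1.28, 0.760 and 0.763 CPM in S7_2, S7_3 and S7_4, and at 0.318, 0.383 and 0.582 CPM in S9_1, S9_2 and S9_4. The groups followed each other without overlap, S6 above S7 above S9, an order that 1.44% of all genes tested shared and that was met within the set by TNF and TNFRSF1B. These levels rest on 93 to 159 counts in an S6 library, 26 to 47 in an S7 library and 12 to 22 in an S9 library. TNF had the largest log2 fold change of the set between S9 and S6, at -3.07 (SE 0.48, edgeR adjusted p = 0.0164), an 8.41-fold higher level in S6. Against S7 the level in S6 was 3.86-fold higher, which was not called (log2 fold change -1.95, SE 0.46, edgeR adjusted p = 0.110).

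The receptors split. TNFRSF1A, the widely expressed receptor with a death domain, was at 159, 136 and 168 CPM in S6, 146, 146 and 154 CPM in S7 and 132, 159 and 141 CPM in S9, so all 3 groups overlapped. Its log2 fold change was -0.099 in S9 against S6 (95% interval -0.40 to 0.20, edgeR adjusted p = 0.651) and -0.054 in S7 against S6 (95% interval -0.35 to 0.24, edgeR adjusted p = 0.886). TNFRSF1B, the receptor found mainly on leukocytes and endothelium, was at 206, 123 and 145 CPM in S6, 67.4, 81.2 and 72.4 CPM in S7 and 44.1, 51.3 and 53.3 CPM in S9. Every S6 library stood above every S7 library, and every S7 library above every S9 library. TNFRSF1B gave the smallest p of the set in S9 against S6 (edgeR adjusted p = 0.0117), at a log2 fold change of -1.68 (SE 0.20).

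The balance between the receptors can be read within a library, where it does not depend on scaling. Counts of TNFRSF1B per count of TNFRSF1A were 1.30, 0.906 and 0.866 in S6_2, S6_3 and S6_4, 0.461, 0.556 and 0.472 in the S7 libraries and 0.334, 0.322 and 0.378 in the S9 libraries. The receptors were thus counted about equally in S6, whereas TNFRSF1A dominated in S7 and more so in S9. On the log2 scale the ratio was 1.55 lower in S9 than in S6, with means of -1.54 ± 0.12 and 0.0082 ± 0.32 (difference -1.55, two-sided exact permutation p = 0.1, adjusted p = 0.129 over 9 ratio tests). With 3 libraries against 3 this test cannot go below 0.1. S7 differed from S6 by -1.02 and S9 from S7 by -0.52, each without overlap and each at the same exact p. Of all other genes, 31.4%, 19.4% and 14.4% had a ratio to TNFRSF1A without overlap in these 3 comparisons.

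**Figure D2:**
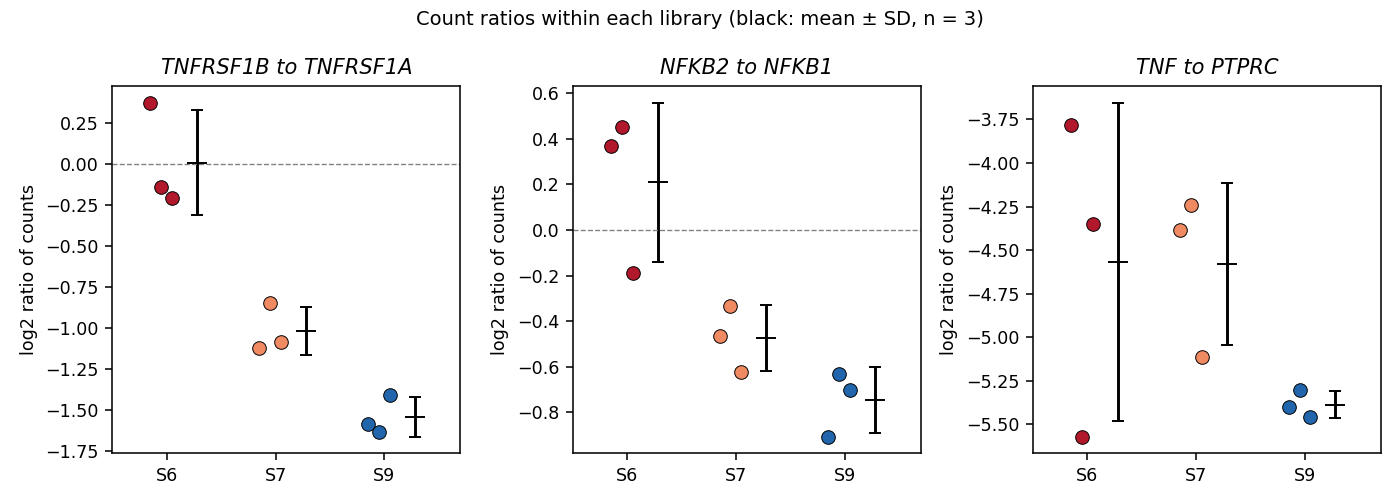
Log2 ratio of counts (y axis) of TNFRSF1B to TNFRSF1A, NFKB2 to NFKB1 and TNF to PTPRC in each S6, S7 and S9 library (x axis), with mean ± SD in black. The ratio of the receptors steps down from S6 to S7 to S9. That of the precursors does so too, but S7_4 (-0.623) and S9_2 (-0.630) nearly touch. TNF to PTPRC spreads widely in S6.

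Both IkappaB genes named NFKBI in the set, NFKBIA and NFKBIE, were called lower in S9 than in S6, and neither was called in S7 against S6. NFKBIA, the IkappaB that is resynthesised fastest after activation, was at 266, 218 and 153 CPM in S6, 87.4, 103 and 101 CPM in S7 and 98.1, 107 and 99.8 CPM in S9. The S7 and S9 libraries lay within a narrow band, while S6 was both higher and more spread. The log2 fold change was -1.06 in S9 against S6 (SE 0.19, edgeR adjusted p = 0.0203) and -1.13 in S7 against S6 (SE 0.19, edgeR adjusted p = 0.0815, not called). NFKBIE, a second IkappaB, was at 34.9, 56.8 and 38.5 CPM in S6, 13.5, 16.7 and 15.7 CPM in S7 and 10.6, 12.8 and 15.8 CPM in S9. Its S6 libraries stood clear of the rest, the lowest of them 2.09-fold above the highest S7 or S9 library, which was the widest such gap in the set. In S9 against S6 its log2 fold change was -1.73 (SE 0.23, edgeR adjusted p = 0.0132). In S7 against S6 it was -1.50 (SE 0.23, edgeR adjusted p = 0.0695, not called).

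TNFAIP3, which removes and rebuilds ubiquitin chains on signalling proteins below the receptor, was at 113, 98.9 and 78.0 CPM in S6, 35.0, 25.1 and 37.5 CPM in S7 and 38.0, 45.2 and 38.6 CPM in S9. It was the 1 gene of the set with every S9 library above every S7 library, though by little. TNFAIP3 was called in both comparisons with S6, with a log2 fold change of -1.25 in S9 (SE 0.20, edgeR adjusted p = 0.0164) and -1.57 in S7 (SE 0.20, edgeR adjusted p = 0.0445). Between S9 and S7 the difference of 0.32 was not called (95% interval -0.12 to 0.76, edgeR adjusted p = 0.607).

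The alternative NF-kappaB pathway runs through NFKB2, whose precursor is cut to a subunit that pairs with RELB. NFKB2 was at 124, 157 and 99.4 CPM in S6, 57.1, 52.5 and 52.3 CPM in S7 and 48.9, 57.3 and 50.1 CPM in S9. RELB was at 40.5, 63.5 and 35.9 CPM in S6, 16.1, 18.2 and 18.2 CPM in S7 and 16.7, 14.8 and 20.7 CPM in S9. For both genes S7 and S9 overlapped closely and S6 lay apart, and S6_3 was the highest library. NFKB2 was called lower in S9 (log2 fold change -1.28, edgeR adjusted p = 0.0132, SE 0.17) and narrowly in S7 (-1.23, SE 0.17, edgeR adjusted p = 0.0499). RELB was called lower in S9 (-1.42, SE 0.23, edgeR adjusted p = 0.0181) but not in S7, where its log2 fold change was nearly the same (-1.41, SE 0.23, edgeR adjusted p = 0.0778).

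NFKB1, the precursor of the canonical pathway, differed less between the codes than NFKB2. It was at 108 ± 10.5 CPM in S6, 75.2 ± 7.82 CPM in S7 and 87.3 ± 5.23 CPM in S9, and was called in no comparison. Counts of NFKB2 per count of NFKB1 were 1.29, 1.37 and 0.877 in the S6 libraries, 0.723, 0.793 and 0.650 in S7 and 0.533, 0.646 and 0.614 in S9. The log2 ratio differed by -0.96 between S9 and S6, by -0.69 between S7 and S6 and by -0.27 between S9 and S7, in each case without overlap (two-sided exact permutation p = 0.1, adjusted p = 0.129). S7 and S9 were barely apart, with S7_4 at -0.623 and S9_2 at -0.630. A ratio to NFKB1 without overlap was found for 38.2%, 41.6% and 20.8% of all other genes. Between S9 and S7 the log2 fold change was -0.051 for NFKB2 and 0.22 for NFKB1, neither of them called, so the lower ratio in S9 came mostly with more NFKB1.

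BIRC3, a ubiquitin ligase recruited to the TNF receptor complex that restrains cell death, was at 182, 142 and 135 CPM in S6, 37.0, 51.8 and 72.7 CPM in S7 and 38.0, 31.4 and 60.9 CPM in S9. All 3 S6 libraries lay far above the rest, and S7_4 and S9_4 were the highest of the other 6. The log2 fold change was -1.82 in S9 against S6 (SE 0.31, edgeR adjusted p = 0.0194) and -1.51 in S7 against S6 (SE 0.31, edgeR adjusted p = 0.0938, not called). TNFAIP2, a TNF-induced gene linked to membrane protrusions between cells, was at 162, 73.2 and 97.6 CPM in S6, 47.6, 51.3 and 62.1 CPM in S7 and 36.0, 30.5 and 62.1 CPM in S9. It varied most within S6, 2.21-fold from S6_3 to S6_2, and its lowest S6 library was only 1.18-fold above the highest other one. TNFAIP2 was called lower in S9 (log2 fold change -1.37, SE 0.34, edgeR adjusted p = 0.0366) with the largest p among the called genes of the set.

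Within S6 the genes did not peak in the same library. S6_2 was highest for TNFRSF1B, NFKBIA, TNFAIP3, BIRC3 and TNFAIP2, and S6_3 for TNF, NFKBIE, NFKB2 and RELB. The ratio of the highest to the lowest S6 library ran from 1.23 for TNFRSF1A to 2.21 for TNFAIP2.

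**Figure D3:**
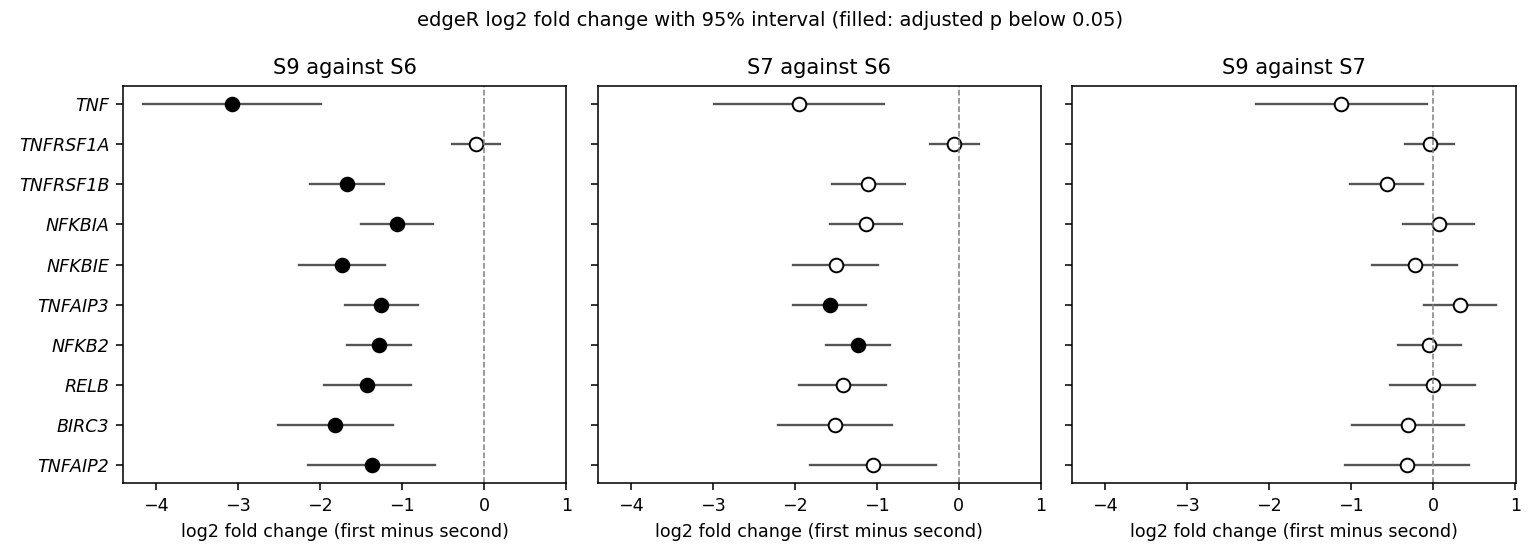
Log2 fold change of each gene (x axis, first code minus second) with its 95% interval from the edgeR fit, in the 3 comparisons, filled where the adjusted p was below 0.05. In S9 against S6 every gene but TNFRSF1A is filled, in S7 against S6 TNFAIP3 and NFKB2 are, and in S9 against S7 none is.

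The S9 calls depended on which libraries entered the fit. With each library left out in turn, the genes called ran from 0 to 9. It was 0 without S9_1, where edgeR called no gene of the whole table and 3994 had an unadjusted p below 0.05, 0 without S9_2, where 0.0228% of all genes were called, and 6 without S6_4, where 0.508% were called. In these fits, and in each of the 22 alternatives run, the log2 fold changes of the 9 genes stayed below 0, and all 9 had an unadjusted p below 0.05 (31.2% of all genes with all 9 libraries). Without S9_1 they lay between -2.89 and -1.03 (edgeR adjusted p 0.0741 to 0.136), and without S9_2 between -3.0 and -1.10 (edgeR adjusted p 0.0534 to 0.119). Without the 3 libraries low in ATP6, which leaves 2 libraries a group, no gene of the set and 0.0406% of all genes were called, at log2 fold changes from -3.38 to -1.24 (edgeR adjusted p 0.0584 to 0.0754). TNFAIP2 lost its call in 11 of 22 alternatives, more often than any other gene of the set.

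**Figure D4:**
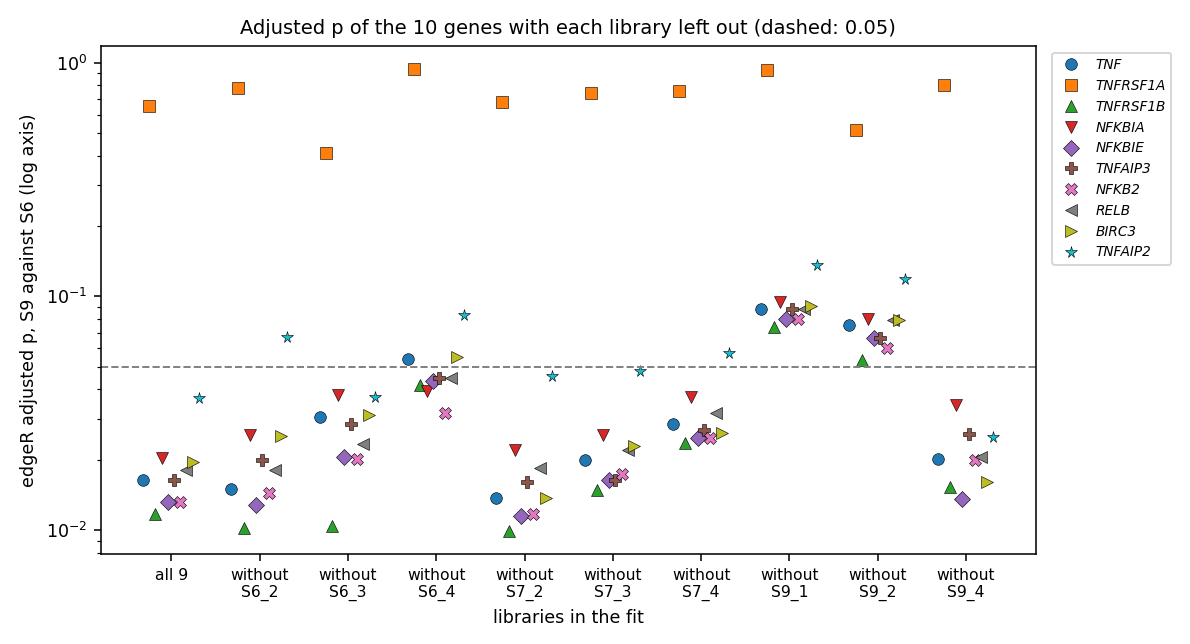
edgeR adjusted p of the 10 genes in S9 against S6 (y axis, log scale) with all 9 libraries and with each library left out (x axis), the dashed line at 0.05. Without S9_1 or S9_2 every gene lies above the line, and TNFRSF1A lies above it in each fit.

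In S7 against S6, 2 of 10 genes were called lower, against 0.0643% of all genes tested, and 9 of 10 had an unadjusted p below 0.05, as did 17.1% of all genes. The S7 libraries lay below the S6 libraries for 9 of 10 genes, and for 10.4% of all genes. The 7 genes that had S7 below S6 without a call had log2 fold changes between -1.95 and -1.05 and edgeR adjusted p between 0.0695 and 0.171. Neither TNFAIP3 nor NFKB2 was called with any library left out of the fit, S9 libraries included. DESeq2 called 9 of the 10 genes here and 7.84% of all genes in either direction, and limma-voom called 7 of the 10 and 1.79% of all genes.

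Between S9 and S7 edgeR called none of the 10 genes and none of all genes tested (0%). DESeq2 and limma-voom also called 0 of the 10 (0.698% and 0% of all genes). TNF and TNFRSF1B had an unadjusted p below 0.05, as did 9.21% of all genes, with log2 fold changes of -1.12 (95% interval -2.16 to -0.083, edgeR adjusted p = 0.538) and -0.57 (95% interval -1.01 to -0.13, edgeR adjusted p = 0.538). Without overlap, S9 lay below S7 for these 2 genes and above it for TNFAIP3, against 8.81% and 8.36% of all genes. For NFKBIA, NFKB2 and RELB the differences were 0.066, -0.051 and -0.0097, with 95% intervals of -0.37 to 0.50, -0.43 to 0.33 and -0.53 to 0.51. Tested over the 3 codes together, 8 of the 10 genes differed by edgeR's F test, against 2.43% of all genes, and TNFRSF1A (adjusted p = 0.866) and TNFAIP2 (adjusted p = 0.0749) did not pass.

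Levels of different genes can be set side by side only per length, for which the deposited FPKM (the count divided by gene length and by the library total) were used. NFKBIA led in each group, at 134 ± 35.5 FPKM in S6, 60.5 ± 4.79 in S7 and 66.5 ± 1.5 in S9. It made up 31.2%, 28.6% and 32.1% of the summed FPKM of the 10 genes, so its share hardly moved while its level did. TNFRSF1A came next in S7 (51.2 ± 3.05 FPKM) and S9 (52.0 ± 3.77 FPKM), and its share of the set was 12.6% in S6, 24.2% in S7 and 25.1% in S9. In S6 the places after NFKBIA were held by TNFRSF1B (59.6 ± 17.7 FPKM), TNFRSF1A (53.9 ± 7.96 FPKM) and TNFAIP2 (50.5 ± 22.0 FPKM), which do not differ beyond their spread. TNF was lowest in all groups, at 2.11 ± 0.588, 0.545 ± 0.184 and 0.262 ± 0.0892 FPKM, under 1% of the set.

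Leukocyte RNA was higher in S6, as the 9 genes were. PTPRC, the surface phosphatase carried by leukocytes, was at 34.8, 230 and 72.4 CPM in S6_2, S6_3 and S6_4, at 14.6 to 27.1 CPM in S7 and at 14.0 to 26.2 CPM in S9. S6_2 lay nearest to the other codes in PTPRC, at 1.29-fold the level of S7_2 and 1.33-fold that of S9_4. Its summed leukocyte markers were at 283 CPM, against 164 CPM in S7_2 and 170 CPM in S9_4. Its summed neutrophil markers, which do not all go the same way between the codes, were at 13171 CPM, against 5679 and 836 CPM. Summed macrophage markers were at 648 CPM in S6_2, 365 CPM in S7_2 and 464 CPM in S9_4. Summed B and plasma cell markers differed more, at 2195, 438 and 1079 CPM in these libraries. T and NK cell markers summed to 43.7, 54.9 and 40.2 CPM, so S6_2 lay below S7_2 there. Levels of the 9 genes in S6_2 were 1.96-fold to 4.92-fold those of S7_2 and 1.96-fold to 4.33-fold those of S9_4. The mean log2 level of the 10 genes was 6.38 in S6_2 and 6.34 in S6_3, which had 6.59 times the PTPRC of S6_2, and it was 5.03 to 5.18 in S7 and 4.78 to 5.09 in S9. That mean runs over genes that peak in different S6 libraries: TNF, NFKBIE, NFKB2 and RELB were highest in S6_3. Without S6_3, 9 genes were called lower in S9, and 5.85% of all genes were called in either direction. The part of leukocyte content in these differences was not tested.

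**Figure D5:**
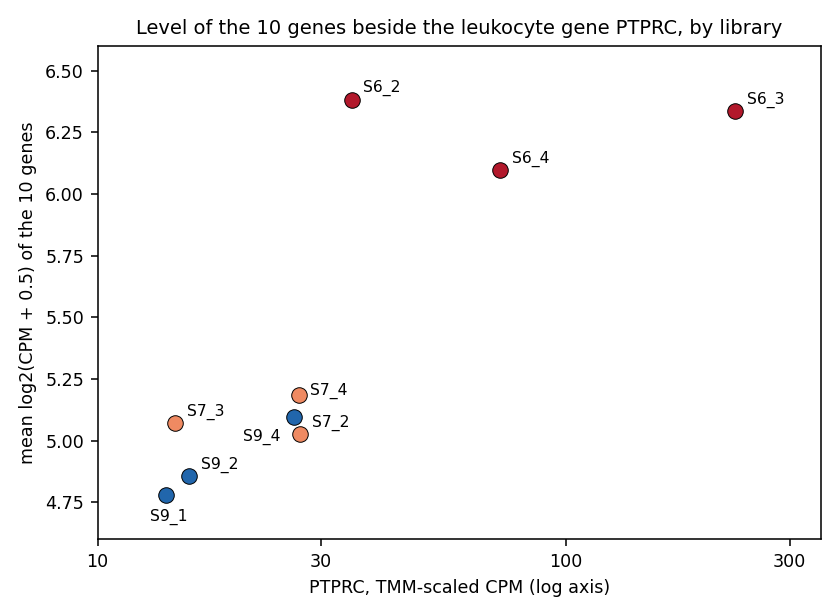
Mean log2(CPM + 0.5) of the 10 genes (y axis) against PTPRC in CPM (x axis, log scale), 1 point per library, coloured by code. The S6 libraries span 34.8 to 230 CPM of PTPRC at levels of 6.10 to 6.38, and the other 6 libraries lie at 4.78 to 5.18.

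Counts of TNF per count of PTPRC were 0.0727, 0.0210 and 0.0491 in the S6 libraries, 0.0478, 0.0528 and 0.0289 in S7 and 0.0237, 0.0253 and 0.0227 in S9. S6 spanned the range of the other codes. The log2 ratio differed by -0.82 between S9 and S6 (two-sided exact permutation p = 0.4, adjusted p = 0.450) and by -0.013 between S7 and S6 (exact p = 0.9, adjusted p = 0.900). S9 lay below S7 without overlap, by -0.81 (exact p = 0.1, adjusted p = 0.129), a comparison in which 5.94% of all other genes lay apart in their ratio to PTPRC. In S9 against S6 and S7 against S6 the shares were 69.6% and 59.7%.

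Further genes of the pathway were counted in S9 against S6, where 12.4% of all genes were called. Among signalling proteins near the receptor 3 of 28 tested were called, all lower, and the median log2 fold change was -0.19. They were TNIP3 (log2 fold change -5.06, edgeR adjusted p = 0.0235, SE 1.0) and TNIP1 (-0.78, SE 0.16, edgeR adjusted p = 0.0248), which bind TNFAIP3 and help it to restrain NF-kappaB, and CASP8 (-1.44, SE 0.31, edgeR adjusted p = 0.0264), the protease that starts death receptor killing. TNIP3 was low in S9, with 2, 27 and 7 counts in its libraries against 160 to 646 in S6. The remaining members tested, among them the IkappaB kinases and the TRAF adaptors with a row in the table, were not called, which does not show equal levels. TRAF2 and FADD could not be matched to a row and were not tested.

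Of 6 other NF-kappaB subunits and inhibitors, NFKBIZ (126 ± 46.3 CPM in S6 and 40.3 ± 16.9 CPM in S9, log2 fold change -1.65, edgeR adjusted p = 0.0260) and NFKBIB (39.9 ± 5.37 and 24.6 ± 4.50 CPM, -0.70, edgeR adjusted p = 0.0387) were called lower. NFKBIZ is a nuclear IkappaB that NF-kappaB induces, and NFKBIB a cytoplasmic one. REL, a subunit abundant in lymphocytes, was at 20.2 ± 4.53 CPM in S6 and 13.0 ± 3.70 CPM in S9 and was not called (edgeR adjusted p = 0.130).

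Among TNF and NF-kappaB target genes 11 of 21 tested were called, all lower, with a median log2 fold change of -1.70. IL6 and CSF2, with 99 and 171 counts in total, were too scarce to pass the filter and were not tested. GADD45B could not be matched to a row. ICAM1, the endothelial and epithelial ligand of leukocyte integrins, was at 137 ± 18.9 CPM in S6, 62.2 ± 12.4 CPM in S7 and 51.0 ± 4.56 CPM in S9 (log2 fold change of S9 against S6 -1.43, SE 0.18, edgeR adjusted p = 0.0127). IL1B and CXCL8, an inflammatory cytokine and a neutrophil chemokine, had log2 fold changes of -5.11 (SE 0.66) and -5.00 (SE 0.67, edgeR adjusted p = 0.0132 for both). Both were scarce in S9_1, S9_2 and S9_4, with 28, 48 and 31 counts of IL1B and 34, 66 and 19 of CXCL8. SOD2, the mitochondrial superoxide dismutase, was the only target with a positive value, at 259 ± 21.4 CPM in S6 and 290 ± 37.8 CPM in S9, and was singled out for that after its value was seen. NFKBIZ stands in this list as well.

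The wider family of TNF ligands and receptors moved in both directions. Of 14 other ligands tested 3 were called lower and 2 higher in S9 (median log2 fold change -1.80). TNFSF10, a death-inducing ligand, was lower at 68.3 ± 15.2 against 179 ± 27.1 CPM (-1.39, edgeR adjusted p = 0.0244), as was LTB, a lymphocyte lymphotoxin that engages the alternative pathway (-2.47, edgeR adjusted p = 0.0308). TNFSF12, the ligand of TNFRSF12A, was higher, at 42.5 ± 4.15 against 16.9 ± 2.6 CPM, with S7 between them at 29.3 ± 7.32 CPM (edgeR adjusted p = 0.0164, log2 fold change 1.33, SE 0.21). The other ligand called higher was EDA, a ligand in the development of skin appendages (1.66, SE 0.42, edgeR adjusted p = 0.0390), named after its value was seen.

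Of 19 other receptors tested 6 were called lower and 1 higher in S9 (median log2 fold change -1.10). Lower were TNFRSF8, a receptor of activated lymphocytes (-3.09, SE 0.62, edgeR adjusted p = 0.0235), the death receptor FAS (-1.94, SE 0.40, edgeR adjusted p = 0.0248) and TNFRSF13B, a B cell receptor (-2.18, SE 0.50, edgeR adjusted p = 0.0305). Counts in S9_1, S9_2 and S9_4 were low for TNFRSF8 (32, 39 and 11) and TNFRSF13B (31, 19 and 22). Summed B and plasma cell markers were at 2195 to 3282 CPM in S6 and 903 to 1681 CPM in S9. NGFR, the neurotrophin receptor of nerve and Schwann cells, was the 1 called higher (1.28, SE 0.33, edgeR adjusted p = 0.0398) and was named after its value was seen. Of the 87 different genes tested in these 5 lists, edgeR called 27 in S9 against S6 (12.4% of all genes). It called none of them in S7 against S6 (0.111% of all genes) or S9 against S7 (0%). In S7 against S6, 38 had an unadjusted p below 0.05 (17.1% of all genes). DESeq2 called 26 there (7.84% of all genes) and limma-voom 7 (1.79% of all genes). In S9 against S7, 12 had an unadjusted p below 0.05 (9.21% of all genes). DESeq2 called 3 there (0.698% of all genes) and limma-voom 0 (0% of all genes). Without S9_1 or without S9_2 edgeR called none of them in S9 against S6 (0% and 0.0228% of all genes). In those fits 41 and 40 of them had an unadjusted p below 0.05, as did 3994 and 4174 of all genes. Without S6_4 edgeR called 4 (0.508% of all genes), all of them target genes.

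By Pearson's r over the 9 libraries, among 10688 genes with a symbol and a mean of at least 5 CPM, the genes most like the mean z-score of the set were CASP1, the protease that activates interleukin-1 (r = 0.994, Spearman's rho = 0.983), CEBPD, an inflammatory transcription factor (0.986, rho = 0.933), IFIH1, a sensor of viral RNA (0.985, rho = 0.967), MAT2B (0.983, rho = 0.917) and UBALD2 (0.979, rho = 0.983). CASP1 was at 15.5 ± 4.81 CPM in S6, 2.52 ± 0.652 CPM in S7 and 1.61 ± 0.581 CPM in S9, and CEBPD at 655 ± 101, 280 ± 4.73 and 216 ± 11.6 CPM. Those most like TNF alone were IPO4 (r = 0.973), PTPN18 (0.973), EVI2B (0.969), ATP6V0B (0.968) and ABTB1 (0.966). The libraries share their codes, and the step between S6 and the rest enters each of these values, which are descriptions only.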

How the data were processed

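The authors deposited raw counts (whole reads, 1 value per gene and library) for 9 libraries of rabbit urethra. Per the submitters' processing notes, fastp, HISAT2 and HTSeq were used, with versions, genome build and strand setting not given in the sources used here. FPKM of the same reads were deposited as well. The spans of NFKBIA and NFKB2 each overlap that of 1 uncharacterised gene in the RefSeq table for mOryCun1.1. Exons and strands were not compared, and the strand setting is not given. Whether the overlap affects their counts is therefore unknown.

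Genes were kept by filterByExpr (minimum count 10, minimum total 15), scaled by TMM and fitted as 3 groups by robust quasi-likelihood in edgeR 4.0.16 under R 4.3.3. P-values were adjusted by Benjamini-Hochberg over all 17102 genes, with 0.05 as the threshold. Each standard error is the log2 fold change over the root of its F statistic. Ratios used log2(count + 0.5) and exact permutation tests. The edgeR steps, but not the ratio tests, were tested on simulated counts, in S9 against S6. Those counts were drawn independently from a common profile, with changes set only in genes of higher mean count than TNF. Genes as scarce as TNF and shifts in cell composition were thus not covered. Alternatives used limma 3.58.1 and DESeq2 1.42.0.

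The genes, lists, tests and alternatives were chosen with earlier results of these data known. All 10 genes were named, with the 3 genes of smallest p in S9 against S6 per pathway list, any called in the other comparisons, and the 5 most alike in pattern. Alternatives for the pathway lists were added after seeing the data.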

Additional observations from a re-analysis of the deposited data

How the results depend on the processing

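In all alternatives run, which share libraries, the log2 fold changes of the 9 genes other than TNFRSF1A stayed negative in both comparisons with S6, while the calls changed. Shares of all genes called, in either direction, follow in brackets. In S9 against S6 the count of 9 called genes (12.4%) was 0 with the replicate number as a replicate block (0.0936%) and 0 without the 3 libraries low in ATP6 (0.0406%), and ran from 0 to 9 with a library left out (0% to 11.8%). In S7 against S6 the count of 2 (0.111%) was 9 by DESeq2 (7.84%), 7 by limma-voom (1.79%), 1 with a term for libraries low in ATP6 (0.0234%), 0 with the replicate block (0.00585%), 0 with the 2 groups alone and without the 3 libraries low in ATP6 (0% each), and 0 with any library left out (0% to 0.057%). Over the 3 codes the count of 8 (2.43%) was 0 with the replicate block (0.0117%) and without the 3 libraries low in ATP6 (0%), and ran from 0 to 9 with a library left out (0 without S6_4, S9_1 or S9_2, at 0% to 0.0456%; 5 without S6_3 or S7_4, at 0.741% and 0.472%). In S9 against S7 the count was 0 in all alternatives (0% to 0.698%).

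The replicate numbers were not taken as a pairing. Deviations of same-numbered libraries correlated at -0.088 to 0.196 over 7 pairs and those of others at -0.22 to 0.125, and 6 of 8 libraries correlated best with their own number. The block fits S9_1 exactly, since no other library carries its number. It placed the 9 genes at log2 fold changes of -2.83 to -0.99 in S9 against S6 (edgeR adjusted p 0.0569 to 0.147).

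Signs changed only for differences near 0. TNFRSF1A changed sign in S7 against S6 without the 3 libraries low in ATP6 (0.022), and ran from -0.13 to 0.0055 with a library left out. In S9 against S7 it did so with log2(FPKM + 1) (0.021), log2(FPKM + 0.1) (0.021) and a gene length correction (0.0044), and ran from -0.12 to 0.028 with a library left out. In S9 against S7, NFKBIA ran from -0.0052 to 0.12 with a library left out, and NFKBIE changed sign with the replicate block (0.033). NFKB2 did so with log2(FPKM + 1) (0.016), log2(FPKM + 0.1) (0.017) and the replicate block (0.061), and ran from -0.12 to 0.0053 with a library left out. RELB did so with log2(FPKM + 1) (0.045), log2(FPKM + 0.1) (0.048), the replicate block (0.14) and the length correction (0.072), and ran from -0.14 to 0.094 with a library left out. The TNF to PTPRC log2 ratio of S7 against S6, -0.013, was 0.034 with log2(count + 2) and 0.13 with log2(FPKM + 0.1), and ran from -0.51 to 0.38 with a library left out. The cause of these shifts was not tested. Counts of 12 to 22 reads limit TNF in S9.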
